A study of Mus musculus with 4 samples.

Results

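The 6 genes described here encode the receptors of the mouse for the Fc part of IgG and the chain they share. They are Fcgr1, Fcgr3 and Fcgr4, which activate the cell, Fcgr2b, which inhibits it, Fcer1g, the common signalling chain, and Fcgrt, the neonatal Fc receptor. They were taken by symbol from the gene table of the series, and 6 of 6 were found once among 27998 genes. Their raw unique molecular identifiers (UMIs, one per captured transcript) were read in 4 droplet single-cell libraries of liver cells. All were of strain C57BL/6J: 2 libraries had the control diet and 2 the Amylin liver NASH (AMLN) diet, used as a model of nonalcoholic steatohepatitis (NASH), a fatty and inflamed liver. No allele, transgene, age, sex or time on diet is given in the labels. Cells were sorted as CD45+ CD146- after an antibody to CD16/32, the proteins of Fcgr3 and Fcgr2b, had been added to block Fc receptors. The block acts on protein at the cell surface, and its part in the transcript counts was not tested. The study's title places it in the diversity of myeloid cells in NASH. Whether the 2 libraries of a diet are separate animals is not stated, and p-values therefore reflect only how these libraries spread, which may be technical.

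Antibodies that coat a particle or a cell are read by myeloid cells through Fc receptors. Activating receptors pass the signal through the immunoreceptor tyrosine-based activation motif (ITAM) of the Fcer1g chain, while Fcgr2b carries an inhibitory motif (ITIM) of its own, so the balance of activating and inhibitory receptors sets how a cell answers an immune complex. In the liver, Kupffer cells, the resident macrophages, take up complexes from the blood, and sinusoidal endothelial cells are known for high Fcgr2b and for clearing small complexes. Fcgrt pairs with B2m and returns IgG and albumin from endosomes to the blood.

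The libraries held 5513953 to 15619962 UMIs each. After filters, 6158 of 6927 barcodes were kept, with 1307 and 1420 cells on the control diet and 1572 and 1859 cells on the NASH diet. They were placed in 27 clusters, and the 6 genes were left out of the genes that drew the clusters. Cell classes are called "-like" from marker genes that include none of the 6. The NASH libraries were deeper, with medians of 8246 and 7587 UMIs per macrophage-like cell against 3114 and 2840.5 in the control libraries, and depth per cell and diet cannot be told apart. Ptprc, which encodes CD45, had a UMI in 71.3% to 80.7% of the kept cells of a library. A class of endothelial-like cells passed the sort, with Ptprc UMIs in 24.5% to 47.8% of its cells and UMIs of Mcam, which encodes CD146, in 24.4% to 34.8%.

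Of the 6 genes, 4 lie on chromosome 1 (mm10, GENCODE vM21). Fcgr2b spans chr1:170958617-170976547, minus strand, ENSMUSG00000026656, Fcgr4 spans chr1:171018920-171029761, plus strand, ENSMUSG00000059089, Fcgr3 spans chr1:171051174-171064935, minus strand, ENSMUSG00000059498, and Fcer1g spans chr1:171229572-171234365, minus strand, ENSMUSG00000058715. Fcgr1 spans chr3:96282909-96293969, minus strand, ENSMUSG00000015947, and Fcgrt spans chr7:45092990-45103851, minus strand, ENSMUSG00000003420. The antisense gene Gm38204 overlaps Fcgr2b and is counted on its own, and the antisense gene Gm45669 overlaps Fcgrt. Whether counting used the strand is not given in the sources used here, so reads of these pairs could be mixed. Fcgr3 and Fcgr2b are near copies over part of their length: 10.6% of the 60-base words of the longest Fcgr3 transcript occur in Fcgr2b, and none of those in its last 500 bases do, where polyadenylated transcripts are mostly read.

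The 3 activating receptors shared a short word in front of their start sites that was not found at the other 3 members, and these stretches are shown because the 3 genes have the same role. The diet calls in macrophage-like cells below did not run with the word. Fcgr1 and Fcgr3 were called higher and Fcgr4 was not, while Fcer1g and Fcgr2b were called higher without it. The word is GAGGAA, the core that the myeloid factor PU.1 binds, sought on both strands in the 250 bases before each start in RefSeq's promoter table (GRCm38.p6). It occurred once each at Fcgr1, Fcgr3 and Fcgr4, was absent from the window of Fcgr2b, Fcer1g and Fcgrt, and stands in 23.3% of all 32851 promoters of the table. Up to the start or just before it, 100 bases that lie in no annotated exon are printed 5′ to 3′ on the gene's strand, with the word as its reverse complement in capitals.
Fcgr1, chr3:96293970-96294069, minus strand: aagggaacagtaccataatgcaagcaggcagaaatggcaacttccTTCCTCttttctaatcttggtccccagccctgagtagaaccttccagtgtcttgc
Fcgr3, chr1:171059404-171059503, minus strand: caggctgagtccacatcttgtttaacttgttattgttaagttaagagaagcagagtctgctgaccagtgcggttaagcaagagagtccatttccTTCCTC
Fcgr4, chr1:171018820-171018919, plus strand: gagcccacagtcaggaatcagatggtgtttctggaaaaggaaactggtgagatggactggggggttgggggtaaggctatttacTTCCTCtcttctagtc
The word begins 55 bases before the start of Fcgr1, 22 before that of Fcgr4 and 6 and 15 before the RefSeq starts of Fcgr3, which lie inside the longer GENCODE gene. Of other motifs sought on both strands, TTCNNNGAA, bound by STAT factors, occurred at Fcgr1 (7.02% of all promoters), an ISRE-like motif, named for interferon response, at Fcgr4 (2.98%), and CACGTG and TGANTCA at none of the 6. A match is a description of these letters and no test of binding.

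Across cell classes the 6 genes had 3 patterns, and the plot of levels by class shows them. Fcgr1 and Fcgr3 were high in macrophage-like and monocyte-like cells. Fcgr4 was high in macrophage-like cells and lower in monocyte-like cells (134 and 143 CPM on the control diet and 117 and 178 CPM on the NASH diet). In neutrophil-like cells Fcgr4 was 1007 and 253 CPM on the control diet and 219 and 224 CPM on the NASH diet, values that rest on 5, 11, 23 and 18 cells. Macrophage-like cells held 63.6% to 93.7% of all UMIs of Fcgr1, Fcgr3 and Fcgr4 in a library. Fcer1g reached further, into natural killer (NK) cell or ILC1-like cells (2814 and 3582 CPM on the control diet and 3130.4 and 2479 CPM on the NASH diet), which use it with other receptors. The control values of these cells rest on 6 and 20 cells. In plasmacytoid dendritic cell-like cells, makers of interferon, the level of Fcer1g was 1227 and 1489 CPM on the control diet and 1726 and 1614 CPM on the NASH diet. Fcgr2b stood apart. Its highest level in every library was in endothelial-like cells, at 1371 and 2050.1 CPM on the control diet and 466 and 586 CPM on the NASH diet, and monocyte-like cells came next at 379 and 271 CPM on the control diet and 236 and 215 CPM on the NASH diet. The control values of monocyte-like cells rest on 8 and 12 cells. CPM are UMIs of the gene summed over the cells of a class and scaled to the same total of all UMIs in every library. Since a UMI counts a transcript whatever its length, levels were not divided by gene length.

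**Figure D1:**
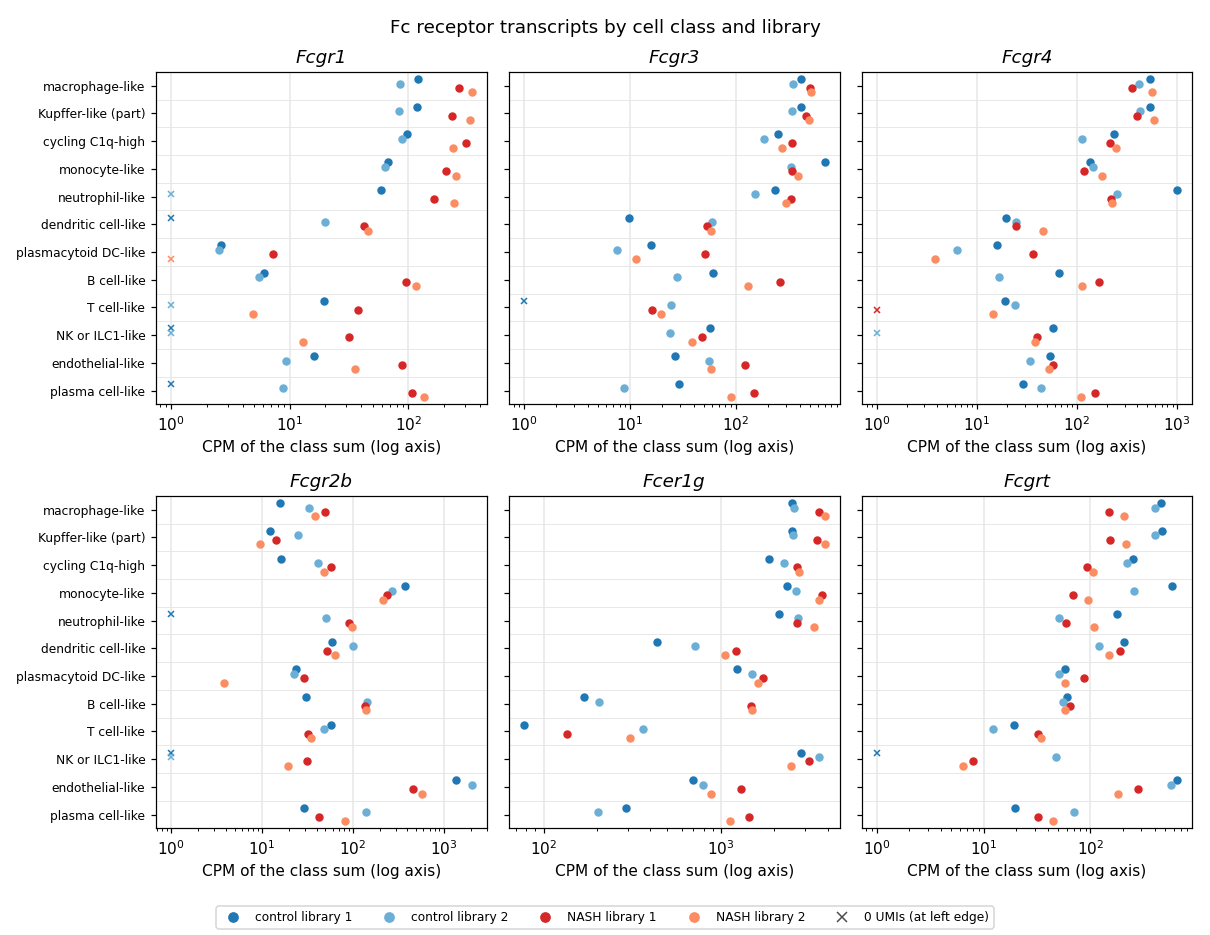
Level of each of the 6 genes (CPM of the summed UMIs, log axis) in classes with at least 5 cells in the library, 1 point per library and a cross for 0 UMIs. Fcgr2b is highest in endothelial-like cells, and Fcer1g in NK or ILC1-like cells lies within or just below the range of macrophage-like cells over all libraries.

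Droplets also catch free RNA and pairs of cells, so each level was set against C1q (C1qa, C1qb and C1qc), transcripts of macrophages that other cells should lack. In macrophage-like cells Fcer1g UMIs per 100 C1q UMIs were 18.7 and 19.6 on the control diet and 21.2 and 20.0 on the NASH diet. In B cell-like cells they were 20.4 and 27.4 on the control diet and 24.6 and 31.6 on the NASH diet, in 1 library within the macrophage-like range and in 3 above it. NK cell or ILC1-like cells stood far above it, at 445 and 455 on the control diet and 617 and 654 on the NASH diet, and so did plasmacytoid dendritic cell-like cells, at 322 and 497 on the control diet and 218 and 555 on the NASH diet. Fcgr2b in endothelial-like cells stood further still from macrophage-like cells, with 66.2 and 157 on the control diet and 13.4 and 33.4 on the NASH diet. In macrophage-like cells Fcgr2b per 100 C1q UMIs was 0.118 and 0.251 on the control diet and 0.293 and 0.200 on the NASH diet. For Fcgr3 the ranges of endothelial-like cells (1.30 to 4.30) and macrophage-like cells (2.63 to 3.06) overlapped. Among T cell-like cells, which should lack these receptors, 0 to 17.2% had an Fcer1g UMI and none an Fcgr4 UMI after each cell was thinned to 1000 UMIs. In the same thinned cells 12.7% to 27.3% of T cell-like cells had a UMI of C1qa. Their medians before thinning were 3303 and 2445 UMIs on the control and 3102 and 3055 on the NASH diet. Free RNA or paired cells as the source of these UMIs was not tested beyond these ratios.

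**Figure D2:**
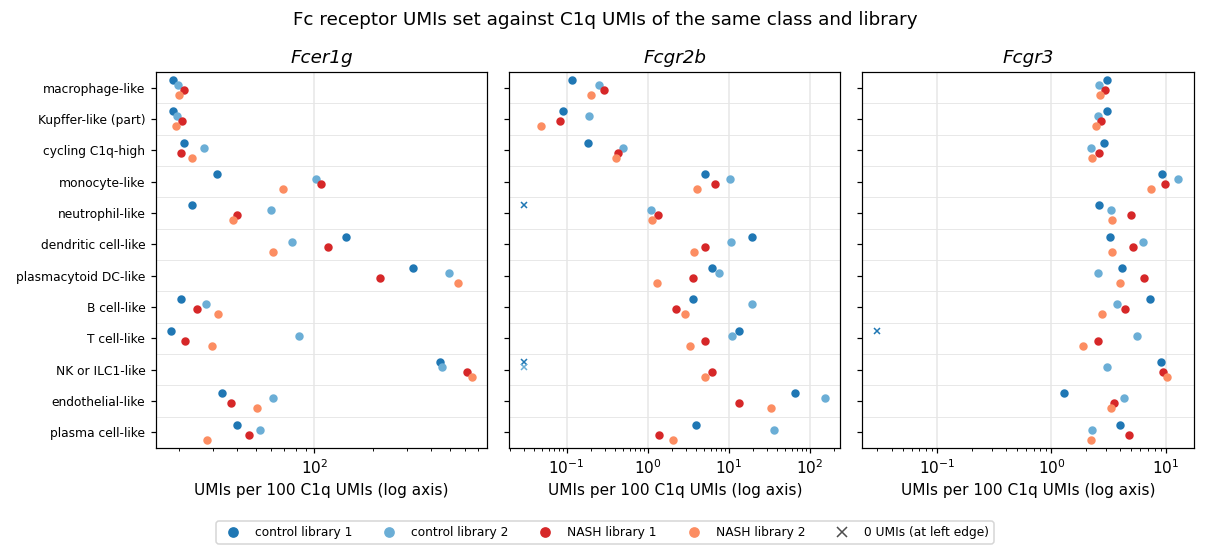
UMIs of Fcer1g, Fcgr2b and Fcgr3 per 100 UMIs of C1qa, C1qb and C1qc in the same class and library (log axis), 1 point per library. Fcer1g in NK or ILC1-like and plasmacytoid DC-like cells and Fcgr2b in endothelial-like cells lie to the right of the macrophage-like points.

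The first comparison asked how the 6 genes differed between the diets in macrophage-like cells, the class with the most cells (972 and 868 cells on the control diet and 727 and 1025 cells on the NASH diet). Fcgr1, the high-affinity receptor for IgG, Fcgr3, Fcer1g and Fcgr2b were higher in NASH, Fcgrt was lower, and Fcgr4 did not pass the test. That is 5 of 6 genes called, 4 higher and 1 lower, where 44.0% of all 10290 genes tested were called (23.1% higher and 20.9% lower, 2379 and 2152 genes). A high share of calls is thus not particular to these genes. The clusters that hold this class differ by diet and between the control libraries. Clusters led by Fkbp5 and by Marco held most of the control cells, and clusters led by Folr2, Mmp12, Cx3cr1 and Gpnmb most of the NASH cells. Of the control cells, the Fkbp5 cluster had 830 in library 1 and 89 in library 2, and the Marco cluster 101 and 705, so that the control libraries stand apart.

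Fcgr1 had 121 and 85.6 CPM on the control diet and 267 and 343 CPM on the NASH diet. Both NASH libraries were above both control libraries, and the higher control library was 121 CPM against 267 CPM in the lower NASH library (log2 fold change 1.93, SE 0.19, edgeR adjusted p = 9.3e-05). This was the largest change among the 6 in this class, and its adjusted p was at most 0.000621 under all 18 alternatives. Thinned to 1000 UMIs per cell, which left out 13 and 9 control cells, the share of macrophage-like cells with an Fcgr1 UMI was 11.5% and 7.22% on the control diet and 21.0% and 26.5% on the NASH diet. Without thinning these shares were 31.0% and 22.0% on the control diet and 77.7% and 82.2% on the NASH diet. Fcgr3, the low-affinity activating receptor, had 415 and 346 CPM on the control diet and 498 and 508 CPM on the NASH diet. Its groups did not overlap, but the step between 415 and 498 CPM was small (log2 fold change 0.77, SE 0.15, edgeR adjusted p = 0.00175). With a stricter filter on cells (at least 500 genes, at most 5% mitochondrial UMIs) the Fcgr3 call was lost (log2 fold change 0.41, edgeR adjusted p = 0.0565).

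Fcgr4, which binds IgG2 subclasses with intermediate affinity, had 536 and 414 CPM on the control diet and 357 and 558 CPM on the NASH diet. The control libraries lay between the NASH libraries, and no change was called (log2 fold change 0.32, SE 0.22, edgeR adjusted p = 0.269). Its sign depended on the scaling: without normalization factors the fold change was -0.055. The fold changes given here use trimmed-mean (TMM) factors, which place the median of all genes at -0.02, and without factors that median was -0.39, a shift of -0.37. Under that scaling 5260 genes were called, 1302 higher and 3958 lower, in place of the 2379 and 2152 above. Fcgr1, Fcgr3 and Fcer1g kept their higher call and Fcgrt its lower call under it.

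Fcer1g, the chain without which the activating receptors are poorly held at the surface, was the most abundant of the 6, with 2530.4 and 2591 CPM on the control diet and 3564 and 3848 CPM on the NASH diet. The groups were separated and both control libraries were within 100 CPM of each other (log2 fold change 0.91, SE 0.14, edgeR adjusted p = 0.000525). After thinning, the share of macrophage-like cells with an Fcer1g UMI was 87.3% and 85.1% on the control diet and 95.9% and 96.4% on the NASH diet (unthinned, 97.5%, 95.6%, 100% and 99.9% in the same order). Per 100 C1q UMIs neither Fcer1g, given above, nor Fcgr3 (3.06 and 2.63 on the control diet and 2.96 and 2.64 on the NASH diet) showed a step between the diets of the size seen in CPM, and Fcgr1 did (0.894 and 0.649 on the control diet and 1.59 and 1.78 on the NASH diet). These ratios carry no test.

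Fcgrt had 461 and 398 CPM on the control diet and 149 and 205 CPM on the NASH diet, with both NASH libraries below both control libraries (log2 fold change -0.91, SE 0.17, edgeR adjusted p = 0.00164). After thinning, the share of macrophage-like cells with an Fcgrt UMI was 33.8% and 32.0% on the control diet and 13.5% and 16.8% on the NASH diet (unthinned, 72.6%, 65.3%, 59.8% and 71.6% in the same order). B2m, the light chain that Fcgrt needs to leave the endoplasmic reticulum, moved the other way (4369 and 3975 CPM on the control diet, 5849 and 8041 CPM on the NASH diet, log2 fold change 1.11, edgeR adjusted p = 0.000533). Endothelial cells and hepatocytes also express Fcgrt. Summed endothelial markers in the macrophage-like sums were 285 and 309.7 CPM on the control diet and 100.4 and 95.7 CPM on the NASH diet, with 8 of the 11 tested (13 in the list) called lower and none at 0, and summed hepatocyte markers were 1355 and 1285 CPM on the control diet and 645 and 485 CPM on the NASH diet, with 10 of 15 called lower. Their part in the Fcgrt result was not tested.

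**Figure D3:**
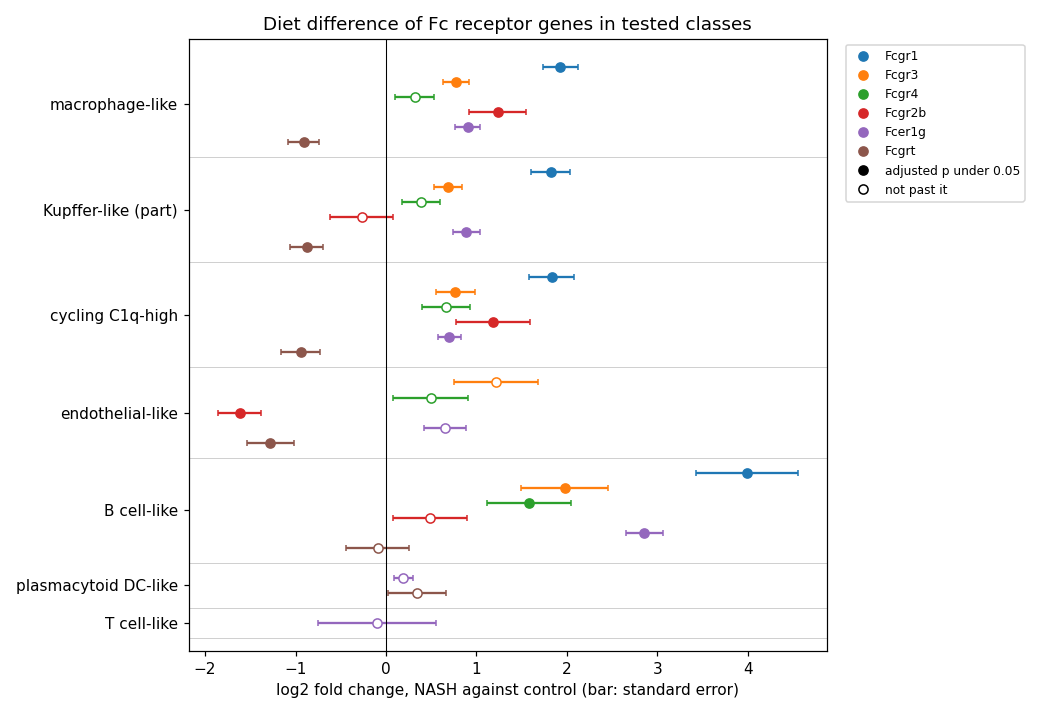
Log2 fold change of NASH against control with its standard error for each tested gene in the 7 tested sets of cells (Kupffer-like cells are part of the macrophage-like cells). Filled points passed an edgeR adjusted p of 0.05; Fcgr2b is to the right of 0 in macrophage-like cells and to the left of it in endothelial-like cells.

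Fcgr2b, the inhibitory receptor, was the least abundant of the 6 in macrophage-like cells, with 16.0 and 33.1 CPM on the control diet and 49.2 and 38.4 CPM on the NASH diet. The groups did not overlap, though control library 2 was closer to NASH library 2 than to the other control library (log2 fold change 1.23, SE 0.32, edgeR adjusted p = 0.0184). The call was lost without normalization factors (0.86, adjusted p = 0.0581), without NASH library 1 (1.03, adjusted p = 0.0839) and without the control cluster led by Marco (0.86, adjusted p = 0.528), which takes away 705 of the 868 cells of control library 2 and 101 of the 972 of library 1. Without control library 1 the log2 fold change was 0.77. After thinning, the share of macrophage-like cells with an Fcgr2b UMI was 1.25% and 2.68% on the control diet and 3.44% and 3.22% on the NASH diet (unthinned, 4.22%, 8.76%, 22.8% and 18.1% in the same order). Among T cell-like cells, which number 11 and 29 on the control diet and 48 and 55 on the NASH diet, it was 2.08% to 9.09%. The macrophage-like shares are thus not above the range of this small class and are not read as a difference. Monocyte markers, of cells with high Fcgr2b, summed to 569 and 433 CPM on the control diet and 481 and 605 CPM on the NASH diet in the macrophage-like sums, without a step between the diets in the sum. Of the 9 tested (10 in the list), 3 were called higher and 1 lower, and their part in the Fcgr2b result was not tested.

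Within macrophage-like cells, Fcgr2b differed between clusters above and below the threshold on the Kupffer markers. In Kupffer-like cells, clusters with Clec4f and Vsig4 in at least 80% of cells, Fcgr2b was 12.3 and 24.8 CPM on the control diet and 14.3 and 9.65 CPM on the NASH diet, the groups overlapped, and no change was called (log2 fold change -0.27, SE 0.34, edgeR adjusted p = 0.569). The clusters below that threshold had fewer cells with these markers but did not lack them, with Clec4f in 48.2% and Vsig4 in 40% of cells of the cluster led by Cx3cr1, Olfml3 and Cd207, and 42.9% and 41.7% in that led by Gpnmb, Cd63 and H2-M2. The Gpnmb cluster, which had no control cells, held 97.9 and 90.4 CPM of Fcgr2b in the NASH libraries. The Cx3cr1 cluster held 79.9 and 76.5 CPM there, and 190.3 CPM in the 30 cells it had in control library 2. The Kupffer-like NASH clusters led by Folr2 and by Mmp12 had 12.6 and 8.24 CPM and 16.4 and 12.3 CPM. In both NASH libraries, then, the Cx3cr1 and Gpnmb clusters were higher in Fcgr2b than the Folr2 and Mmp12 clusters, with counting intervals that did not meet (exact 95% Poisson, counting error only: 72.8 to 111 CPM for the Gpnmb cluster and 7.62 to 18.8 CPM for the Mmp12 cluster in NASH library 2). The control clusters led by Fkbp5 (12.7 and 21.2 CPM) and by Marco (11.7 and 23.7 CPM) were low as well. The small Kupffer-like control cluster led by Cxcl13 was not shown to be low. In control library 2 it had 6 Fcgr2b UMIs beside 88 of the activating receptors in 37 cells, where the Marco cluster had 53 beside 1862. In control library 1 it had 0 beside 57 in 22 cells. Whether the diet effect on Fcgr2b differs between Kupffer-like and other macrophage-like cells was not tested, since the other cells number 8 and 30 in the control libraries.

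The other members ran through the clusters differently. In Kupffer-like cells Fcgr1 (119 and 83.9 CPM on the control diet and 235 and 327 CPM on the NASH diet; log2 fold change 1.82, SE 0.21, edgeR adjusted p = 0.000315) was higher in NASH. Fcgr3 and Fcer1g were higher there too (log2 fold changes 0.68 and 0.89, edgeR adjusted p = 0.00643 and 0.0013) and Fcgrt was lower (-0.88, edgeR adjusted p = 0.00336). These are 4 of 6 members called, 3 higher and 1 lower, against 38.5% of 9721 genes (20.8% higher and 17.7% lower). The Fcgr3 call in these cells was lost without factors, without NASH library 2, without the Fkbp5 cluster and with the stricter filter (adjusted p from 0.0605 to 0.109). Fcgr1 was highest in the Cx3cr1 cluster, at 331 and 403 CPM on the NASH diet, and among the 4 main clusters of these libraries lowest in the Mmp12 cluster, at 192 and 272 CPM. Fcgrt was, among the same 4, lowest in the Gpnmb cluster, at 101 and 128 CPM, and highest in the Fkbp5 cluster of the control libraries, at 471 and 449 CPM.

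**Figure D4:**
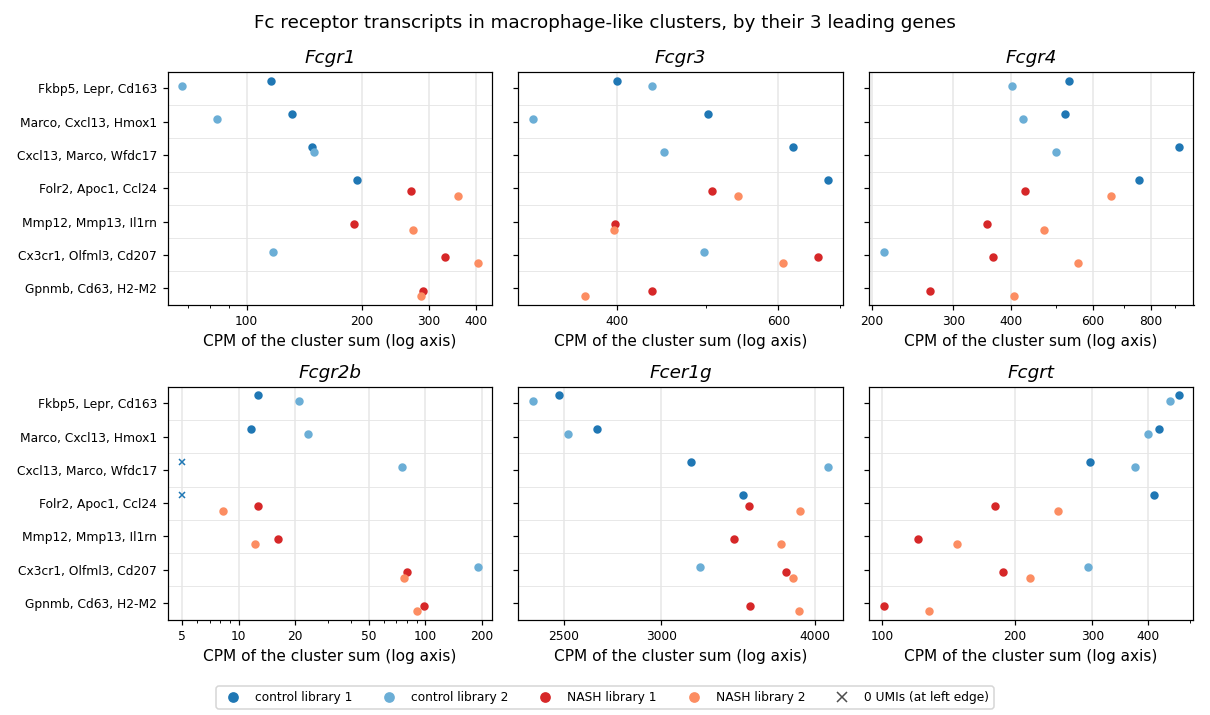
Level of each gene (CPM of the summed UMIs, log axis) in 7 macrophage-like clusters, named by their 3 leading genes, for libraries with at least 10 cells in the cluster. Fcgr2b in the clusters led by Cx3cr1 and by Gpnmb is above that in the clusters led by Folr2, Mmp12, Marco and Fkbp5, while Fcgr1 is higher in the NASH libraries than in the clusters of control cells led by Fkbp5, Marco and Cxcl13.

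The second comparison set the activating receptors against the inhibitory one, as UMIs of Fcgr1, Fcgr3 and Fcgr4 per UMI of Fcgr2b. In macrophage-like cells the ratio was 67.2 and 25.6 on the control diet and 22.8 and 36.7 on the NASH diet. The groups overlapped, and the log2 difference of -0.52 did not pass an exact two-sided permutation test (p = 0.667; with 2 against 2 libraries the smallest p is 0.33). Leaving out each library in turn gave -1.22 to 0.18, above 0 without control library 1 and below 0 without any of the other 3, and leaving out the Fkbp5 or the Marco cluster gave 0.012 and 0.059. In Kupffer-like cells it was 87.3 and 34.2 on the control diet and 76.2 and 146 on the NASH diet (log2 difference 0.95, exact permutation p = 0.667), and 0.27 to 1.62 when each library was left out. Fcgr2b gave 41 and 64 UMIs there on the control diet and 49 and 47 on the NASH diet. Its mean was 18.5 CPM on the control and 12.0 CPM on the NASH diet, against 53.3 and 33.4 CPM in T cell-like cells (7 and 13 UMIs). In plasmacytoid dendritic cell-like cells the mean was 23.2 and 16.5 CPM (27 and 9 UMIs). In NK cell or ILC1-like cells it was 0 and 25.5 CPM (0 and 7 UMIs). The inhibitory level in Kupffer-like cells is thus not above that of T cell-like or plasmacytoid dendritic cell-like cells. The size of the Kupffer-like ratio is not read as a balance. Monocyte-like cells had far lower ratios, 2.35 and 2 on the control diet and 2.81 and 3.80 on the NASH diet, and these values overlapped neither with the Kupffer-like nor with the macrophage-like ones.

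Within the NASH libraries the ratio spread widely over clusters. It was 95.4 and 189 in the Folr2 cluster, 57.7 and 92.6 in the Mmp12 cluster, 17 and 20.5 in the Cx3cr1 cluster and 10.2 and 11.7 in the Gpnmb cluster. The order of these 4 clusters was the same in both libraries. The ratios of the Folr2 and Mmp12 clusters rest on few Fcgr2b UMIs, 24 and 26 in the former and 25 and 21 in the latter. Their Fcgr2b levels, given above, were not above the mean of T cell-like cells on the NASH diet. The share of each receptor among the activating UMIs is given without a test. In macrophage-like cells Fcgr1 gave 11.3% and 10.1% on the control diet and 23.8% and 24.3% on the NASH diet. Fcgr4 gave 50.0% and 48.9% on the control diet and 31.8% and 39.6% on the NASH diet, so the NASH libraries were higher in the one share and lower in the other without overlap. Of the thinned macrophage-like cells with an Fcgr2b UMI, 41.7% and 34.8% on the control diet and 48% and 66.7% on the NASH diet also had an activating UMI. Of the cells without one, 64.1% and 52.5% on the control diet and 62.1% and 70.9% on the NASH diet had one. The former shares rest on 12 and 23 cells on the control diet and 25 and 33 cells on the NASH diet and were not tested against the latter.

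**Figure D5:**
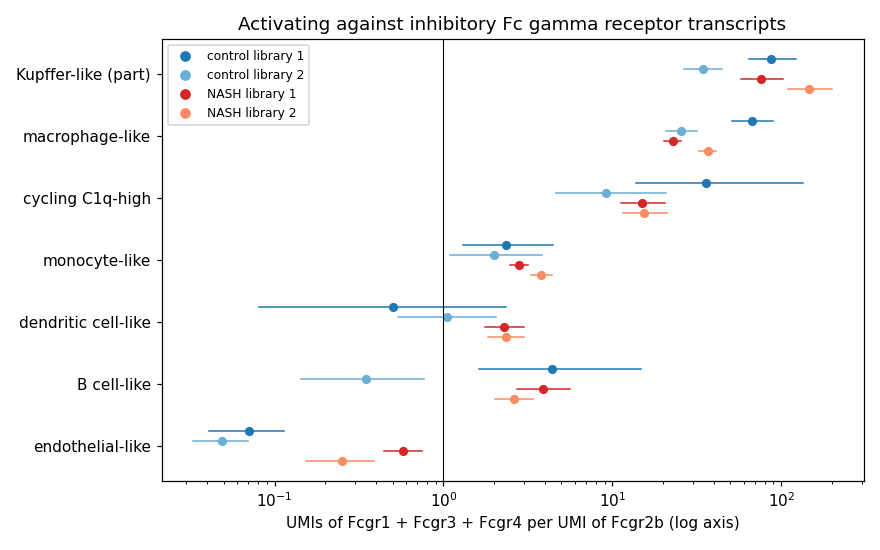
UMIs of Fcgr1, Fcgr3 and Fcgr4 per UMI of Fcgr2b in each library (log axis), with exact 95% intervals that cover counting error only. Endothelial-like cells lie below 1 in all 4 libraries, and the control and NASH points overlap in macrophage-like cells.

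In endothelial-like cells, with 48 and 110 cells on the control diet and 45 and 23 cells on the NASH diet, Fcgr2b fell from 1371 and 2050.1 CPM to 466 and 586 CPM (log2 fold change -1.62, SE 0.24, edgeR adjusted p = 0.00157). After thinning, the share of these cells with an Fcgr2b UMI was 68.8% and 85.8% on the control diet and 28.9% and 47.8% on the NASH diet (unthinned, 83.3%, 96.4%, 62.2% and 73.9% in the same order). Fcgrt fell as well, from 650.4 and 569 to 277 and 182 CPM (log2 fold change -1.28, SE 0.26, edgeR adjusted p = 0.0098). Both NASH libraries were below both control libraries for both genes. These are 2 of 5 members tested, both lower, where 9.0% of 4157 genes were called (4.47% lower). Fcgr3, Fcgr4 and Fcer1g did not pass (adjusted p = 0.138, 0.535 and 0.112), and Fcgr1 was too low to test. Fcer1g passed under 7 of 18 alternatives and Fcgr3 under 6 of 17. The call for Fcgr2b was lost in 1 of 18 alternatives, with 3 times as many putative doublets removed (-1.22, adjusted p = 0.0554).

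The class itself differed between the diets. Summed endothelial markers were 12170.3 and 14726 CPM on the control diet and 3294 and 3979 CPM on the NASH diet in it, with 12 of 13 called lower and none at 0. Summed stellate or fibroblast markers were 1226 and 2016 CPM on the control diet and 5748 and 6365 CPM on the NASH diet, with 6 of the 9 tested (10 in the list) called higher, and the part of this makeup in the fall of Fcgr2b and Fcgrt was not tested. The sort kept CD146- cells, and its part was not tested either. The activating to inhibitory ratio was 0.0706 and 0.0488 on the control diet and 0.577 and 0.250 on the NASH diet (log2 difference 2.69, exact permutation p = 0.33, the smallest possible), and 2.09 to 4.13 over 13 alternatives. Its activating UMIs numbered 18 and 32 on the control diet and 94 and 25 on the NASH diet. As given above, Fcgr3 per 100 C1q UMIs overlapped here with the macrophage-like range. The part of macrophage RNA in this ratio was not tested, and its difference is not read as a shift in balance. Endothelial-like cells gave 67.8% and 73.3% of all Fcgr2b UMIs of the control libraries and 13.5% and 9.24% of the NASH libraries. Clusters left without a name gave 5.32% and 4.25% in the control and 13.8% and 13.5% in the NASH libraries. Among them was a cluster led by Rspo3, Vwf and Bmp4, with 10 and 15 control cells and 28 and 28 NASH cells, which is not counted as endothelial-like. Monocyte-like cells gave 4.52% and 1.90% in the control and 28.8% and 23.6% in the NASH libraries, and macrophage-like cells 14.4% and 10.1% on the control diet and 25.8% and 29.1% on the NASH diet. These shares also carry the number of cells. Endothelial-like cells were 3.67% and 7.75% of control cells and 2.86% and 1.24% of NASH cells. Monocyte-like cells were 0.612% and 0.845% of control cells and 12.5% and 8.55% of NASH cells. Macrophage-like cells were 74.4% and 61.1% of control cells and 46.2% and 55.1% of NASH cells. The Fcgr2b level in monocyte-like cells, given above, was not higher in NASH.

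The diet effect on Fcgr2b differed between the classes. In a model with library as block, its log2 fold change in endothelial-like cells minus that in macrophage-like cells was -2.90 (SE 0.30, edgeR adjusted p = 4.41e-07), where 2.24% of 10124 genes were called, and it passed under all 17 alternatives run for it. The part of the changed makeup of the endothelial-like class in this difference was not tested. The fall of Fcgrt in endothelial-like cells was not shown to differ from that in macrophage-like cells, with a difference of -0.37 (SE 0.32, edgeR adjusted p = 0.684). In B cell-like cells 3 of 6 members differed, where 7.46% of 9463 genes were called, Fcer1g by 2.11 (SE 0.20, edgeR adjusted p = 5.19e-24). In plasmacytoid dendritic cell-like cells, where 8.52% of 9491 genes were called, the effects on Fcgrt and Fcer1g differed from those in macrophage-like cells, by 1.35 (SE 0.35, edgeR adjusted p = 0.00295) and -0.60 (SE 0.19, edgeR adjusted p = 0.0244). Within that class Fcgrt was 57.8 and 50.6 CPM on the control diet and 87.4 and 57.4 CPM on the NASH diet and did not pass, nor did Fcer1g (adjusted p = 0.766 and 0.553). In all, 0 of the 2 members tested there and 0 of the 1 tested in T cell-like cells were called, against 2.09% of 3642 and 0.816% of 1716 genes, and by edgeR at an unadjusted p under 0.05 also 0 and 0.

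The cycling C1q-high cells, led by Top2a and Birc5, had calls in the same directions as macrophage-like cells. Fcgr1 (97.6 and 88.3 CPM on the control diet and 307 and 236 CPM on the NASH diet), Fcgr3, Fcer1g and Fcgr2b were called higher, at log2 fold changes of 1.83, 0.76, 0.70 and 1.18 (edgeR adjusted p = 6.29e-05, 0.0164, 0.000773 and 0.0459). Fcgrt was called lower (252 and 218 CPM on the control diet and 93.4 and 106 CPM on the NASH diet; log2 fold change -0.94, SE 0.22, edgeR adjusted p = 0.00479), and Fcgr4 did not pass (adjusted p = 0.0812). That is 5 of 6, against 24.0% of 6243 genes (13.2% higher and 10.9% lower). No member's diet effect was called different from that in macrophage-like cells (0 of 6, and 0 at an unadjusted p under 0.05, against 0.251% of 9564 genes by edgeR). Fcgr2b there lost its call under 9 of 16 alternatives (adjusted p up to 0.411) and Fcgr3 under 5 of 17. Fcgr1 and Fcer1g each lost it under 1 of 17, when cells were thinned to 1000 UMIs (adjusted p = 0.516 and 0.101), and Fcgrt under 1 of 17, with DESeq2 (adjusted p = 0.0528). Without control library 1 Fcgr2b was 0.64.

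B cell-like cells had more UMIs of the activating receptors in NASH, beside more UMIs of macrophages. Fcer1g was 169.8 and 205 CPM on the control diet and 1478 and 1506 CPM on the NASH diet (log2 fold change 2.85, SE 0.20, edgeR adjusted p = 4.31e-07). Fcgr1, Fcgr3 and Fcgr4 were called higher too, with log2 fold changes of 3.99, 1.97 and 1.58 (edgeR adjusted p = 0.000184, 0.012 and 0.0336), so 4 of 6 members were called against 14.6% of 2554 genes (8.65% higher). Fcgr4 lost its call under 4 of 15 alternatives (adjusted p up to 0.551), among them without control library 2 (0.75, adjusted p = 0.363), and leaving out each library gave 0.75 to 2.88. Fcgr3 lost it under 1 of 15, with all deposited barcodes (adjusted p = 0.351). The differences of these effects from those in macrophage-like cells lost their call under 12 of 17 alternatives for Fcgr4, 9 of 17 for Fcgr3 and 3 of 17 for Fcer1g, counting those that reversed it. Summed macrophage markers in these cells were 1491 and 1271 CPM on the control diet and 7780.1 and 6143 CPM on the NASH diet, with 7 of the 10 tested (11 in the list) called higher. As given above, Fcer1g per 100 C1q UMIs was within the macrophage-like range in 1 library and above it in 3, on both diets. Whether free RNA or paired cells gave these calls was not tested. With 3 times as many putative doublets removed Fcer1g lost its call (0.89, adjusted p = 0.276), and likewise with finer clusters (0.87, adjusted p = 0.251). Fcgr2b, the Fc receptor that B cells themselves use, was 30.3 and 144 CPM on the control diet and 135 and 138 CPM on the NASH diet, with overlapping groups (log2 fold change 0.49, SE 0.41, edgeR adjusted p = 0.505), and without control library 2 it was called higher (1.91, adjusted p = 0.00424).

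Classes with 5 to 9 cells in a library were tested as an addition chosen after the data had been seen. In monocyte-like cells Fcgr1 was 66.9 and 63.7 CPM on the control diet and 207 and 253 CPM on the NASH diet (log2 fold change 1.96, SE 0.43, edgeR adjusted p = 0.0195), and Fcgrt was 579 and 255 CPM on the control diet and 68.8 and 95.3 CPM on the NASH diet (log2 fold change -2.13, SE 0.35, edgeR adjusted p = 0.00237). These 2 of 6 members were called, 1 higher and 1 lower, against 1.97% of 5445 genes (1.01% higher and 0.955% lower), and in both the libraries of the diets were separated. Summed endothelial markers in the monocyte-like sums were 1404 and 207 CPM on the control diet and 94.7 and 92.8 CPM on the NASH diet, with 6 of 13 at 0 in each control library and none of the 2 tested called. Summed erythroid and platelet markers were 1359 and 542 CPM on the control diet and 93.3 and 135 CPM on the NASH diet, with 6 of 7 at 0 in each control library and the 1 tested called lower. Summed macrophage markers were 10608 and 4366 CPM on the control diet and 5944 and 7745 CPM on the NASH diet. Summed Kupffer markers were 3142 and 813 CPM on the control diet and 1301 and 1020 CPM on the NASH diet. The part of these 4 lists in the Fcgrt result was not tested. Fcgr2b in monocyte-like cells was lower in both NASH libraries without passing (log2 fold change -0.35, SE 0.29, edgeR adjusted p = 0.69). In dendritic cell-like cells Fcer1g was 438 and 717 CPM on the control diet and 1219.7 and 1058 CPM on the NASH diet (log2 fold change 0.88, SE 0.18, edgeR adjusted p = 0.0197), 1 of 6 members against 2.04% of 6091 genes (0.887% higher). Dendritic clusters differed widely in it within NASH: the Cd209a cluster had 2448 and 2246 CPM, the Xcr1 cluster 193 and 284 CPM, and the cluster led by Fscn1 and Ccr7 596 and 297 CPM. The Cd209a cluster had only 3 and 8 cells in the control libraries, so the makeup of the class and the diet cannot be told apart. In plasma cell-like cells Fcgr1 and Fcer1g were called higher (2 of 3 tested, against 6.31% of 1300 genes, 3.92% higher). That class had 7 cells in NASH library 1, and over all libraries C1qa had a UMI in 68.8% and Clec4f in 62.5% of its cells. The part of macrophage RNA in its calls was not tested. In neutrophil-like cells 0 of 4 and in NK cell or ILC1-like cells 0 of 1 were called, against 5.28% of 871 and 3.20% of 1094 genes, with 2 and 0 at an unadjusted p under 0.05.

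In these added classes the diet effect was called different from that in macrophage-like cells for Fcgrt, 1.26 (SE 0.28, edgeR adjusted p = 0.000404), and Fcgr2b, -1.44 (SE 0.41, edgeR adjusted p = 0.014), in dendritic cell-like cells (5.74% of 9965 genes called). Within that class neither gene passed, with log2 fold changes of 0.11 for Fcgrt and -0.59 for Fcgr2b (edgeR adjusted p = 0.922 and 0.516). The diet effect was also called different for Fcgr2b in monocyte-like cells, -1.24 (SE 0.36, edgeR adjusted p = 0.0338) (1.73% of 9470 genes called), and for Fcer1g in plasma cell-like cells, 1.58 (SE 0.29, edgeR adjusted p = 9.85e-06) (2.68% of 9342 genes called). It was called for 0 of 6 members in NK cell or ILC1-like and neutrophil-like cells and, among the classes with more cells, in T cell-like cells (0.152%, 0.463% and 0.873% of genes called by edgeR), with 0, 0 and 1 at an unadjusted p under 0.05.

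The genes around these receptors were read from lists in macrophage-like cells, where the median log2 fold change of all genes tested was -0.02. Counts of calls in these lists stand beside the 44.0% of all genes called there (23.1% higher and 20.9% lower). Of 24 genes of ITAM and ITIM signalling, 3 were called higher and 9 lower, a share near that of all genes, with a median of -0.33. Lat2, a scaffold for the signal, was higher (2.66 and 5.14 CPM on the control diet, 60.5 and 45.1 CPM on the NASH diet, log2 fold change 4.16, edgeR adjusted p = 1.81e-05). Lower were Cbl, a ubiquitin ligase that ends it (199 and 220.4 CPM on the control diet, 95.6 and 83.2 CPM on the NASH diet, log2 fold change -0.86, edgeR adjusted p = 0.000889), and Pik3r1, the regulatory subunit of PI3-kinase (169 and 189.9 CPM on the control diet, 61.7 and 88.8 CPM on the NASH diet, log2 fold change -0.88, edgeR adjusted p = 0.00246). The docking protein Dok1 was higher at a log2 fold change of 0.78 (edgeR adjusted p = 0.0037).

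Of the signalling adaptor chains, 4 of 6 were tested and 2 were higher. They were Tyrobp, the sister chain of Fcer1g (2816 and 2317 CPM on the control diet, 4045 and 4112 CPM on the NASH diet, log2 fold change 1.04, edgeR adjusted p = 0.000399), and Cd79b, a chain of the B cell receptor (17.7 and 21.3 CPM on the control diet, 27.2 and 36.0 CPM on the NASH diet, log2 fold change 1.08, edgeR adjusted p = 0.0015). Hcst and Cd79a did not pass (adjusted p = 0.68 and 0.0628). Of 9 receptors that pair with Fcer1g, 5 were tested, 2 higher and 1 lower. The C-type lectins Clec4n (165 and 213 CPM on the control diet, 272 and 262 CPM on the NASH diet, log2 fold change 0.88, edgeR adjusted p = 0.00122) and Clec4d (log2 fold change 1.11, edgeR adjusted p = 0.00475) were higher, and Pira2, an activating receptor of the paired immunoglobulin-like family, was lower (127 and 198 CPM on the control diet, 32.0 and 34.4 CPM on the NASH diet, log2 fold change -1.91, edgeR adjusted p = 0.000169). Clec4e, also a C-type lectin, did not pass (adjusted p = 0.402).

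Of 13 genes listed as other inhibitory receptors with ITIMs, not all of which carry one, 6 were higher and 3 lower, where 23.1% and 20.9% of all genes were, and their median was 0.48. Cd72 (144 and 137 CPM on the control diet, 303 and 337 CPM on the NASH diet, log2 fold change 1.56, edgeR adjusted p = 3.14e-05) and Clec4a2 (148 and 223 CPM on the control diet, 332 and 339 CPM on the NASH diet, log2 fold change 1.23, edgeR adjusted p = 0.000679) were higher, as were Clec12a and Siglecf, at log2 fold changes of 0.92 and 2.26 (edgeR adjusted p = 0.00111 and 0.00118). Siglecf lay under 10 CPM in every library. Of 12 other receptors for immunoglobulins, 5 were tested, with Fcrls higher (2.21) and Pigr, which carries IgA across epithelia, lower (-2.32), both under 10 CPM (edgeR adjusted p = 0.018 and 0.0215). Fcrl1 and Fcrla did not pass.

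Genes whose levels ran most like each member were sought over 41 sums of 13 classes in 4 libraries, by Pearson's r of log2(CPM + 1) among 7827 genes. The sums share libraries and depth, so r is a description. For Fcgr1 they were Hk3 (0.86), Lpcat2 (0.85), Clec4b1 (0.84), for Fcgr3 Abhd12 (0.94), Lilrb4a (0.91), Pgd (0.91) and for Fcgr4 Lipa (0.84), Creg1 (0.84), C1qa (0.82). For Fcer1g they were Tyrobp (0.91), Plek (0.83), Fgr (0.83), for Fcgr2b Cd93 (0.76), Cd300lg (0.75), Snrk (0.75) and for Fcgrt Sult1a1 (0.83), Aldh2 (0.80). Among the members, Fcgr3 with Fcer1g gave 0.75, Fcgr3 with Fcgr4 0.73, and Fcgr2b with Fcer1g 0.052, the lowest of the 15 pairs.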

How the data were processed

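The deposited values are counts, raw UMIs per gene and barcode in 4 matrices of 27998 genes, per the labels of 10x Genomics libraries. The tools named are Cell Ranger and Seurat and the build mm10, per the submitters' processing notes; no version, cell calling rule or use of strand is given there. Barcodes shared by 2 libraries numbered 2 to 8 per pair. From the counts, barcodes under 200 genes or over 10% mitochondrial UMIs were dropped, and the highest Scrublet scores (0.8% per 1000 cells, 14 to 28 cells per library) were left out as putative doublets. Scanpy 1.11.5 (Python 3.11.15, igraph 0.11.9) clustered log values scaled to 10000 per cell with 2000 variable genes without the 6 members, 30 components, 15 neighbours and Leiden resolution 1, without integration. Clusters took names from marker lists, and the rest were left unnamed (57 and 43 cells on the control diet and 145 and 139 on the NASH diet). Clusters with UMIs of C1qa, C1qb and C1qc each in at least 90% of cells were macrophage-like unless led by genes of another type, or cycling where led by cell cycle genes. UMIs were summed per library and class with at least 10 cells in each library, and edgeR 4.0.16 (R 4.3.3) tested all genes passing filterByExpr with TMM factors, the robust quasi-likelihood test and Benjamini-Hochberg adjustment over all genes at 0.05. The test was checked on simulated counts with the same spread between libraries set for all genes and no difference in cluster makeup, so the check does not cover such differences. The interaction model had library as block. Member and pathway lists were chosen with earlier results of these data known. The genes named are all 6 members, the 4 genes of each pathway list with the smallest p in macrophage-like cells, and for each member the 3 genes with the highest r among genes reaching 50 CPM, of which 1 is not reported here. Alternatives were other scalings, DESeq2 1.42.0, no filter on low counts, each library left out, a replicate block, other clusterings and cell filters, and thinning.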

Additional observations from a re-analysis of the deposited data

Results flagged for a closer look

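These results passed edgeR's test of the interaction of diet and class, in which the log2 effect of the NASH diet in a class minus that in macrophage-like cells differed from 0. For Fcgr2b the difference was -2.90 (SE 0.30, adjusted p = 4.41e-07) in endothelial-like cells, and it passed under all 17 alternatives run for it. It stands beside the lower endothelial and higher stellate or fibroblast markers of that class given above, whose part was not tested. On the macrophage-like side Fcgr2b counts were low, and its call there was kept in 15 of 18 alternatives.

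In B cell-like cells the difference was 2.11 (SE 0.20, adjusted p = 5.19e-24) for Fcer1g, 1.41 (SE 0.40, adjusted p = 0.00979) for Fcgr4 and 1.32 (SE 0.39, adjusted p = 0.013) for Fcgr3, beside the higher macrophage markers in this class given above. 7.46% of 9463 genes were called in that comparison. In plasmacytoid dendritic cell-like cells it was 1.35 (SE 0.35, adjusted p = 0.00295) for Fcgrt and -0.60 (SE 0.19, adjusted p = 0.0244) for Fcer1g, where 8.52% of 9491 genes were called. Under 17 alternatives each, Fcgrt kept its call in 12 and Fcer1g in 7.

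The remaining results come from classes with under 10 cells in a library, added after the data had been seen. In dendritic cell-like cells the difference was 1.26 (SE 0.28, adjusted p = 0.000404) for Fcgrt and -1.44 (SE 0.41, adjusted p = 0.014) for Fcgr2b (5.74% of 9965 genes called). Neither gene passed the diet test within that class, as given above. For Fcgr2b in monocyte-like cells the difference was -1.24 (SE 0.36, adjusted p = 0.0338) (1.73% of 9470 genes called), and for Fcer1g in plasma cell-like cells 1.58 (SE 0.29, adjusted p = 9.85e-06) (2.68% of 9342 genes called). The plasma cell-like value stands beside the C1qa and Clec4f UMIs of that class given above.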

How the results depend on the processing

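In macrophage-like cells Fcgr1, Fcer1g and Fcgrt kept their direction and their call under 18 alternatives each (log2 fold changes 1.56 to 2.20, 0.51 to 1.03 and -1.28 to -0.71). Fcgr3 lost its call with the stricter cell filter (0.41). Fcgr2b kept its call in 15 of 18 alternatives and lost it without factors (0.86), without the Marco cluster (0.86) and without NASH library 1. Fcgr4 changed sign without factors (-0.055). The causes were not tested, and leaving out a cluster or taking classes of at least 5 cells was chosen after the data had been seen. Leaving out each library in turn gave 0.77 to 1.82 for Fcgr2b and -0.013 to 0.59 for Fcgr4. A group left with 1 library was assumed to vary like the other. The 15 calls of members in the other classes became 8 when cells were thinned to 1000 UMIs, with fewer UMIs to test.

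The 6 calls of a difference between classes became 2 with DESeq2, 1 with thinning, 3 at Leiden resolution 2.0, 3 with all deposited barcodes, 3 without the Marco cluster, 10 with classes of at least 5 cells, and 2 to 6 when each library was left out. Reversed at resolution 2.0 and with 3 times as many putative doublets removed were the B cell-like minus macrophage-like differences of Fcgr3 (-1.68 and -1.66), Fcgr4 (-0.45 and -0.92) and Fcer1g (-0.010 and -0.017). Among values that had not passed, signs changed for Fcgrt in B cell-like cells without factors (0.077) and without the count filter (0.019), for Fcer1g in T cell-like cells without the count filter (0.15) and with the replicate block (0.074), and for Fcgr2b in Kupffer-like cells with the members among the variable genes (0.036). Leaving out a library gave -0.19 to 1.91 for Fcgr2b and -0.27 to 0.078 for Fcgrt in B cell-like cells, -0.79 to 1.66 for Fcer1g in T cell-like cells, -0.0082 to 0.61 for Fcgrt in plasmacytoid dendritic cell-like cells and -0.72 to 0.28 for Fcgr2b in Kupffer-like cells.

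The labels do not say that libraries with the same replicate number share a batch, and with 2 pairs the deviations of same-numbered libraries had r = 0.00879 over 6966 genes. With replicate number as a block, the calls of the 6 genes in macrophage-like cells were unchanged (log2 fold change of Fcgr2b 1.25, adjusted p = 0.0217), Fcgr4 passed in cycling cells (0.69, adjusted p = 0.013), and 4085 genes were called in place of 4531. That number was 3007 with DESeq2, 2919 without NASH library 1, 2777 without NASH library 2, 2534 with thinning and 2496 with the stricter cell filter. Depth limits Fcgr2b most, with 54 and 90 UMIs of it in the macrophage-like cells of the control libraries.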
